A study of Mus musculus with 4 samples.

Results

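The transcriptional response of resting gastrocnemius muscle to a tumor was described by comparing the cancer control library, E(−)T(+), with the normal control library, E(−)T(−). The gastrocnemius is the large superficial muscle of the calf, and neither of these groups was exercised. Genes entered the comparison when either library reached a normalized read count of 16, which held for 12768 of 23282 deposited gene rows. The animals were male CDF1 mice, labelled as postnatal day 28, which the methods give as the age at purchase. The tumor was raised by injecting CT26 cells, a murine colorectal cancer line, into the tail vein, a route that seeds metastases. Tissue was taken at the end of the experiment, weeks after the injection, so the mice were older than the label at sampling. The design crossed the tumor (T) with high-intensity treadmill running (E) and had 10 mice per group, but the study describes 1 representative mouse per group for sequencing, so each of the 4 groups is 1 library. E(−)T(−) mice were healthy and sedentary, E(+)T(−) mice (normal exercise) were healthy and ran, E(−)T(+) mice bore the tumor and were sedentary, and E(+)T(+) mice (cancer exercise) bore the tumor and ran. No difference below has a replicate library, and no p-value is given. The study also measured selected genes, among them Trim63, Asb2, Col3a1 and Tnnc1, by RT-qPCR in littermates. It reports changes there that matched its sequencing, and those values are not used here. Intervals are 95% intervals of counting error alone and do not cover the spread between mice.

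Muscle wasting in cancer is known as cachexia. In a wasting fiber, FoxO transcription factors, which insulin and IGF signaling normally keep out of the nucleus, switch on the muscle ubiquitin ligases Trim63 (MuRF1) and Fbxo32 (atrogin-1), whose targets are degraded by the proteasome, together with genes of autophagy. Glucocorticoids and cytokines that act through STAT3 and NF-κB drive the same genes, and they also induce metallothioneins, small cysteine-rich proteins that bind zinc and copper, and acute phase proteins, which the liver and other tissues secrete during inflammation. The gastrocnemius of the mouse consists mostly of fast glycolytic fibers, marked by fast isoforms of myosin, troponin and the calcium buffer parvalbumin.

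Promoter sequences are shown for 5 genes with large rises, because each holds a short motif of a factor known to act in this response. The genes were picked with these matches known. The sequences are the 250 bases before the transcription start in RefSeq (GRCm38.p6), in 5′ to 3′ direction of the gene. Capitals mark the motif, searched on both strands. In Mt1 (chr8:94178839-94179088, plus strand) and Mt2 (chr8:94172368-94172617, plus strand) this is the core of the metal response element, TGCACNC or TGCGCNC, which the zinc sensor MTF-1 binds. In Trim63 (chr4:134314870-134315119, plus strand) it is the forkhead core TGTTTAC, which FoxO factors bind. In Saa1 (chr7:46742981-46743230, minus strand) and Saa2 (chr7:46751583-46751832, plus strand) it is TTGCNNAA, a core bound by C/EBP factors.
Mt1: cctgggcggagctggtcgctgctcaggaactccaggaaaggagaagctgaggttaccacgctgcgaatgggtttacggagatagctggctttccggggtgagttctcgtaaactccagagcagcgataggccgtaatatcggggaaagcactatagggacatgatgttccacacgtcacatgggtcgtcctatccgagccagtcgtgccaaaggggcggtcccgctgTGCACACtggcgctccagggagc
Mt2: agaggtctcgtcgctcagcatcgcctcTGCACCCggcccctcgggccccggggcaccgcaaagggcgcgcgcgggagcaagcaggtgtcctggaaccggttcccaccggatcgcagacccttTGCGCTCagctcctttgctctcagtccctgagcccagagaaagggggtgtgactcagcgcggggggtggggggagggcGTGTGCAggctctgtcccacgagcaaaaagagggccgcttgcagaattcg
Trim63: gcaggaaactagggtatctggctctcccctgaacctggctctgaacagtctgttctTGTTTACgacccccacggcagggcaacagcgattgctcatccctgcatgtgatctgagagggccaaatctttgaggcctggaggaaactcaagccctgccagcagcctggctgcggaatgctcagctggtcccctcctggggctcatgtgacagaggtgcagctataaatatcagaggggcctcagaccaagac
Saa1: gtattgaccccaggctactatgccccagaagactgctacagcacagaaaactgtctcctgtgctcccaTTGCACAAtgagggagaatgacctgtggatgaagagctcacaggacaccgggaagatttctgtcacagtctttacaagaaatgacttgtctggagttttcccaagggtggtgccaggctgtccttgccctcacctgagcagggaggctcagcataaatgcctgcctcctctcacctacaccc
Saa2: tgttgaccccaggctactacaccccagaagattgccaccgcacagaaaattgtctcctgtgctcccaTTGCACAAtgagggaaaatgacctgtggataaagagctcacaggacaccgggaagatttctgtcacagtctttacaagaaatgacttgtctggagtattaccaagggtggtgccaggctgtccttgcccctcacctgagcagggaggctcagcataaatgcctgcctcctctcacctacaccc
Mt1 held 1 match of the metal response core and Mt2 held 3. Of 32851 such windows of the mouse genome, 21.4% held at least 1 match of either form. The forkhead core was present in 3.17% of the windows and the C/EBP core in 9.56%. Mt3, a metallothionein that is mainly neuronal, had no match of either metal response core. Mt4, the zinc exporter gene Slc30a1 and Foxo3, which were also searched, held 1 match each. The forkhead core was absent from Foxo1 and Foxo3. These matches are descriptions of letters and not of bound sites.

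The cancer control library had 10647455 reads and the normal control library 11269898. Totals of the exercised libraries were 13226083 in E(+)T(−) and 11026510 in E(+)T(+). Muscle identity was clear in all libraries. Acta1, the skeletal muscle actin, had 326586, 334763, 125922 and 188462 reads in E(−)T(−), E(+)T(−), E(−)T(+) and E(+)T(+), and 4 read counts after a gene name stand in this order throughout. Ckm, the muscle creatine kinase, had 109312, 152217, 62137 and 87616 reads, and Myh4, the myosin of the fastest fibers, had 215168, 169365, 182454 and 131064. The share of reads in the top 10 genes was 23.6% in E(−)T(−) and 13.6% in E(−)T(+). Reads come from the 3′ ends of transcripts, so that counts do not scale with gene length. Log2 differences were taken between normalized read counts plus 1, after scaling to a common library size.

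Of the 12768 genes, 2382 (18.7%) were at least 2-fold higher and 2744 (21.5%) at least 2-fold lower in E(−)T(+) than in E(−)T(−), so that 40.1% passed a 2-fold difference in either direction. These genes are called higher or lower below, and "rose" and "fell" are used for them alone. A 4-fold difference was reached by 841 higher and 1099 lower genes. Within 0.1 of the 2-fold limit on the log2 scale, 519 genes lay inside it and 519 outside. The median log2 difference over all genes was -0.03. A gene with few reads in the normal control could enter only by being high in E(−)T(+), so the counts of called members below are descriptions. Counting error was small beside these differences, since for 5082 of the 5126 called genes the counting interval lay away from 0. For scale, 14.0% of genes at the same minimum were at least 2-fold different between the 2 tumor-free libraries, E(+)T(−) and E(−)T(−), which differ by exercise. Between E(+)T(+) and E(+)T(−), which differ by the tumor and share no library with the sedentary pair, 23.7% were. Neither pair is a replicate, so these shares hold treatment and the spread between libraries together. Both tumor-bearing libraries lay above both tumor-free libraries for 27.3% of the genes and below both for 28.7%. In the scatter plot of the sedentary pair, proteasome genes lay above the diagonal as a group, while collagen and tendon genes lay below it.

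**Figure D1:**
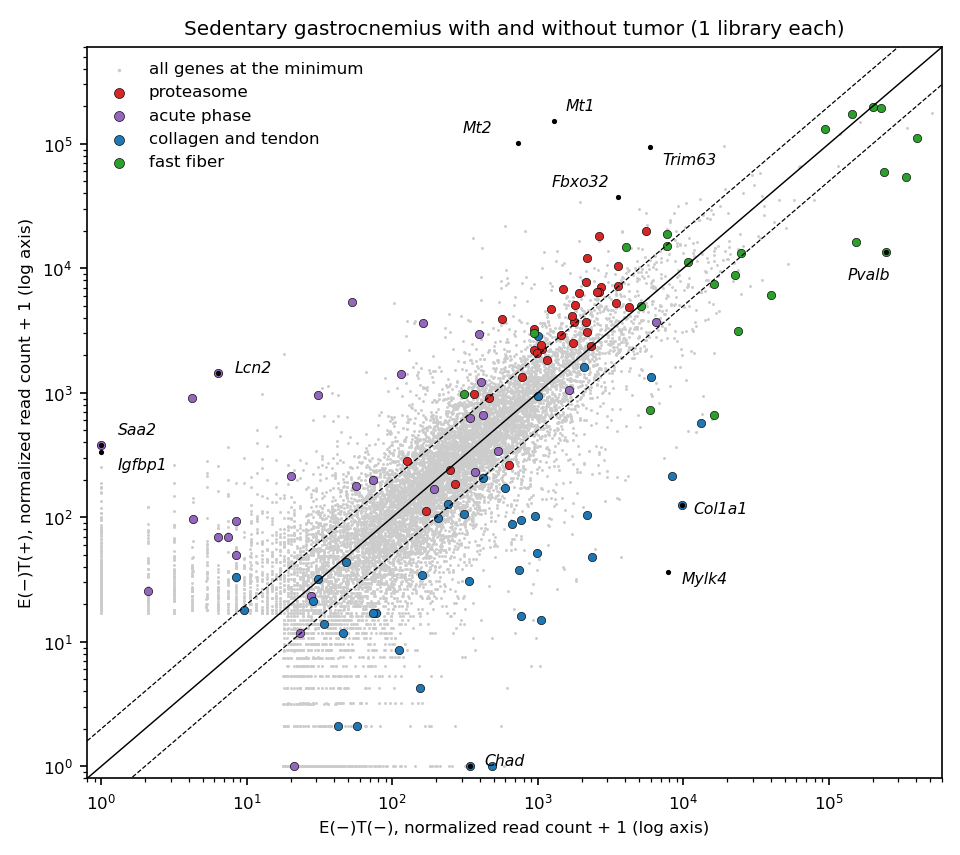
Normalized read count plus 1 in E(−)T(−) (horizontal, log axis) and E(−)T(+) (vertical, log axis) for the 12768 genes at the minimum, 1 library each. Colored points are members of gene lists (proteasome, acute phase, collagen and tendon, fast fiber), the solid line is equality and the dashed lines are 2-fold differences. Mt1, Mt2, Trim63 and Fbxo32 stand above the upper dashed line at high counts, and Col1a1, Mylk4 and Pvalb stand below the lower one.

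**Figure D2:**
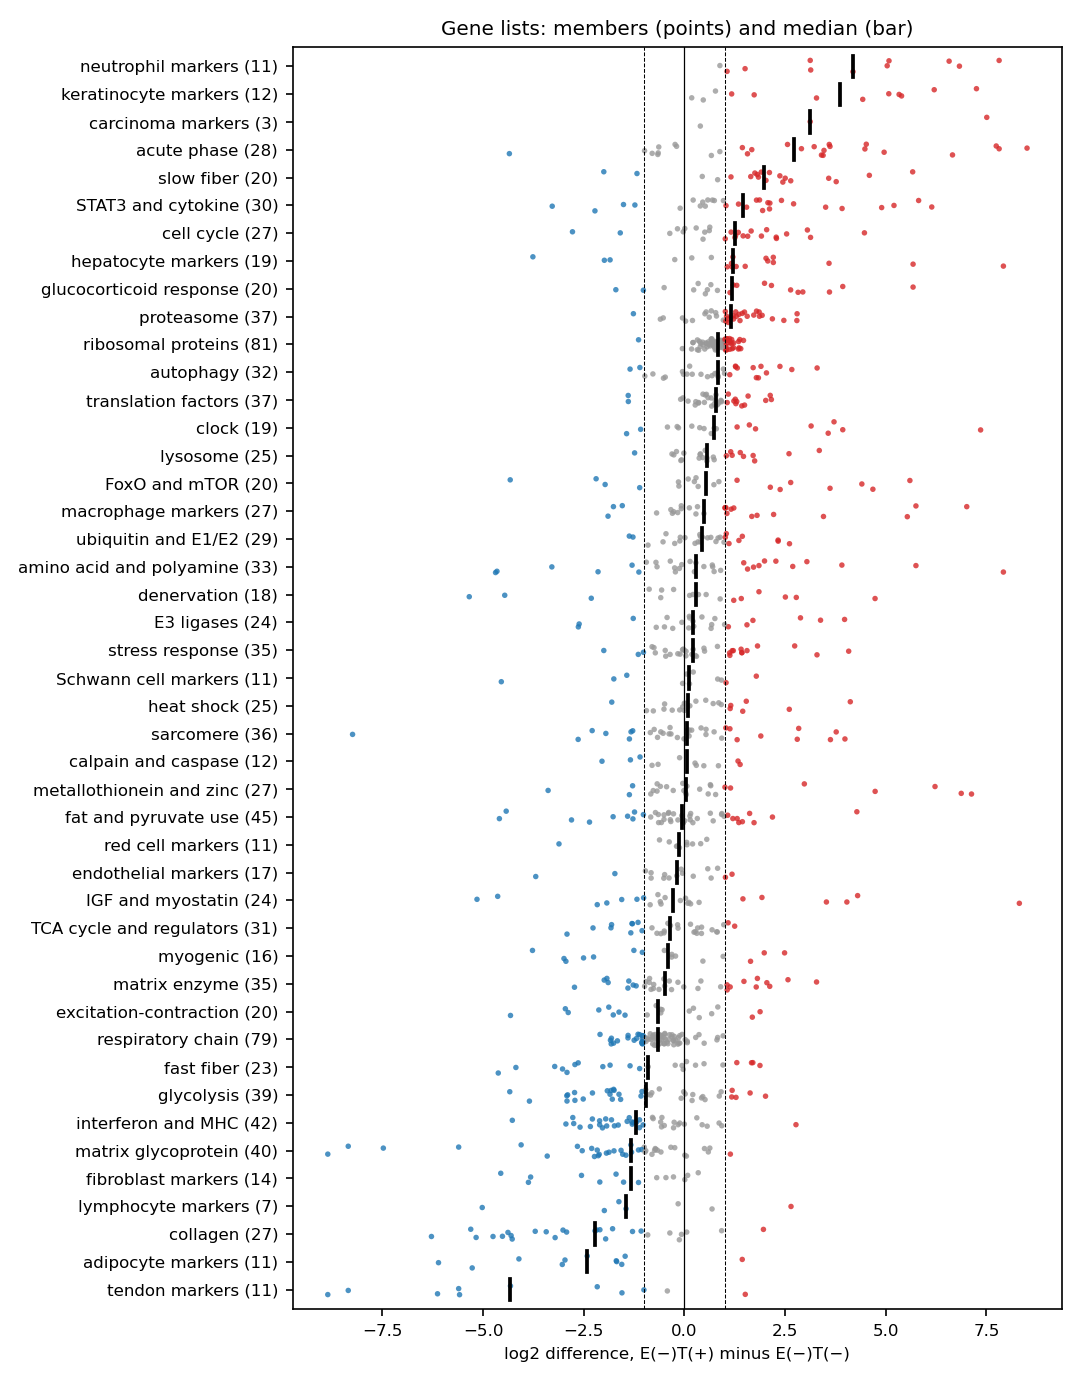
Log2 difference between E(−)T(+) and E(−)T(−) for the members of 45 gene lists (points, members at the minimum, whose number stands in brackets), with the median of each list as a bar and dashed lines at 2-fold. Red points rose, blue points fell and gray points did not reach 2-fold. List medians ran from -4.32 for tendon markers to 4.19 for neutrophil markers.

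Both classical muscle ubiquitin ligases rose. Trim63 (chr4:134315120-134329629), which marks myosin and other thick filament proteins for degradation, had 5595, 2255, 87571 and 38723 reads. It was 15.8-fold higher in the sedentary tumor-bearing library, a log2 difference of 3.98 (interval 3.94 to 4.02), and the exercised pair differed by 4.52. Fbxo32 (chr15:58175879-58214932), which targets regulators of translation and of myogenesis, had 3361, 1002, 34784 and 16715 reads and was 10.4-fold higher (log2 difference 3.38, interval 3.33 to 3.43). For both ligases the tumor-bearing libraries lay far above the tumor-free libraries, and the lower of the tumor-free values belonged to the exercised mouse. Among 24 ligases at the minimum, 6 rose and 3 fell, with a median log2 difference of 0.22. Fbxo31, a ligase of the cell cycle and stress response, rose by 2.88 on the log2 scale, from 646 to 4741 reads between the sedentary libraries. Fbxo30 (MUSA1), a ligase held down by BMP signaling, had 85, 98, 250 and 90 reads, so that its rise of 1.55 was seen in the sedentary pair alone. Traf6, a ligase of inflammatory signaling, had 68, 134, 222 and 88 reads and was likewise highest in E(−)T(+), with its groups overlapping. Asb2, a ligase that limits muscle mass through filamin and other targets, fell by 2.61, with 5661, 3443, 918 and 4509 reads. Trim55 (MuRF2), the close relative of Trim63, had 49, 50, 7 and 53 reads and fell by 2.63, opposite to Trim63. The share of ligases that rose, 6 of 24, stood near the 18.7% of all genes.

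Genes of the proteasome were higher in E(−)T(+). Of 29 genes for ubiquitin, conjugation and deconjugation, 8 rose and 2 fell, beside 18.7% and 21.5% of all genes. Usp14, a deubiquitinase of the proteasome, rose by 1.44, and Nploc4, a partner of the unfoldase Vcp, rose by 2.61, whereas Vcp itself differed by 0.45. Of 37 proteasome genes at the minimum, 24 rose and 1 fell, with a median log2 difference of 1.15 beside -0.03 for all genes. The summed normalized read count of the list was 64725, 87671, 173943 and 135178. The 19S regulatory particle, which recognizes and unfolds ubiquitinated proteins, had 16 of 20 subunits higher, with a median of 1.28. The 20S core, which cuts the chain, had 8 of 14 subunits higher, with a median of 1.05. No subunit of either particle fell. Psmd4, a ubiquitin receptor, had 2469, 4616, 17069 and 11361 reads and rose most (log2 difference 2.80, interval 2.74 to 2.86), followed by the ATPase Psmc4 with 530, 1427, 3653 and 1697. Psmg2, an assembly chaperone of the core, was the member that fell, from 597 to 246 reads. Both tumor-bearing libraries were above both tumor-free libraries for 27 of the 37 genes (27.3% of all genes). The exercised pair gave a median of 0.50 for the list, and its tumor-free library was already higher than the sedentary one for Psmd4, Psmd8 and Psma7. The interferon-inducible subunits Psmb8 and Psmb10, which replace core subunits in immune cells, went the other way and fell by 1.37 and 1.11.

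Autophagy is the second route of bulk degradation. Of 32 autophagy genes at the minimum, 12 rose and 2 fell, with a median log2 difference of 0.83. Gabarapl1, an Atg8 protein that is conjugated to the autophagosome membrane, had 736, 797, 7186 and 1905 reads and rose by 3.30. Bnip3, a receptor for mitochondria, rose from 2462 to 15544 reads in the sedentary pair, by 2.67. The receptor Sqstm1 (p62) rose by 2.37, Map1lc3b by 1.84 and the initiating kinase Ulk1 by 2.04, while the related kinase Ulk2 fell by 1.35. Fundc1, another mitochondrial receptor, had 353, 526, 177 and 206 reads, a difference of -0.98. Tfeb, a master regulator of lysosomal genes, fell by 1.10, from 248 to 114 reads. In the lysosome list 9 of 25 genes rose and 1 fell, with a median of 0.56. Ctsl, a cysteine protease long used as a mark of wasting muscle, had 1268, 1684, 12847 and 4175 reads and rose by 3.35. Gaa, the enzyme that digests glycogen in the lysosome, rose by 2.60, and Ctsd by 1.47, whereas Ctsb differed by 0.39. Of 12 calpain and caspase genes, 2 rose and 3 fell, shares near the 18.7% and 21.5% of all genes. Capn3, the muscle calpain bound to titin, fell by 2.05, and Capn1 fell by 1.10.

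Of 20 genes of FoxO and mTOR signaling, 8 rose and 4 fell, beside 18.7% and 21.5% of all genes, so that the share of falls was near that of all genes. Ddit4 (REDD1), an inhibitor of the growth kinase mTORC1, had 338, 469, 16329 and 7270 reads and was 48.6-fold higher in the sedentary pair (log2 difference 5.60, interval 5.45 to 5.76). Eif4ebp1, the translational repressor that mTORC1 inactivates, had 1041, 1465, 12696 and 12826 reads, a rise of 3.62 that was of like size with exercise (3.55). Both tumor-bearing values exceeded both tumor-free values for these genes. Sesn1, a sestrin that senses leucine and restrains mTORC1, rose by 4.68, and Cdkn1a (p21), a target of FoxO and p53, by 4.41. Foxo1 had 592, 633, 3061 and 1384 reads and rose by 2.38. Foxo3 was below the minimum, with 0, 0, 13 and 9 reads, and Foxo4 differed by 0.10. Ddit4l (REDD2), the relative of Ddit4 that is abundant in muscle, fell by 4.33, from 12713 to 629 reads. Sesn3, a sestrin like Sesn1, had 22, 49, 4 and 23 reads and fell by 2.19.

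In the IGF and myostatin list, 6 of 24 genes rose and 7 fell, beside 18.7% and 21.5% of all genes. Igfbp1, a secreted IGF-binding protein made mainly by liver during fasting, had 0, 0, 311 and 5 reads and was at least 104-fold higher. Igfbp3 rose by 3.53 and Igfbp5, the binding protein most tied to muscle differentiation, fell by 4.64, from 6960 to 277 reads. Igf1 fell by 1.18, with 2134, 1081, 936 and 1188 reads, so that the low value was shared by every library other than the normal control. The receptors rose, Insr by 1.93 and Igf1r by 1.45. Among the adaptors Irs2 rose from 9 to 162 reads and Irs1 fell from 1113 to 290. Mstn (myostatin), the secreted brake on muscle growth, had 395, 220, 194 and 361 reads, with a log2 difference of -1.01 in the sedentary pair and of 1.13 in the exercised pair. Inhbb, which encodes the activin B subunit and signals through the same receptors, rose by 4.30, from 9 to 195 reads. Gdf11, the nearest relative of Mstn, had 34, 28, 0 and 1 reads and was at least 11.2-fold lower.

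Genes that glucocorticoids induce were higher as a group. Of 20 such genes, 11 rose and 2 fell, with a median log2 difference of 1.17, and the exercised pair gave 1.43. Both tumor-bearing libraries were above both tumor-free libraries for 16 of the 20 (27.3% of all genes). Cebpd, a transcription factor of wasting and of the acute phase, had 591, 593, 7142 and 3953 reads and rose by 3.60. Fkbp5, a chaperone of the glucocorticoid receptor and a common reporter of its activity, had 528, 357, 3269 and 3155. Klf15, which turns on amino acid breakdown, rose by 2.82, and Glul, the glutamine synthetase of muscle, by 1.99, from 5260 to 20754 reads. The receptor gene Nr3c1 itself differed by -0.50. Tsc22d3 (GILZ), another classical target, differed by 0.66, so that it did not reach 2-fold. Angptl4, a glucocorticoid and fatty acid target, had 158, 29, 77 and 100 reads, lower with the tumor in the sedentary pair and higher in the exercised pair.

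**Figure D3:**
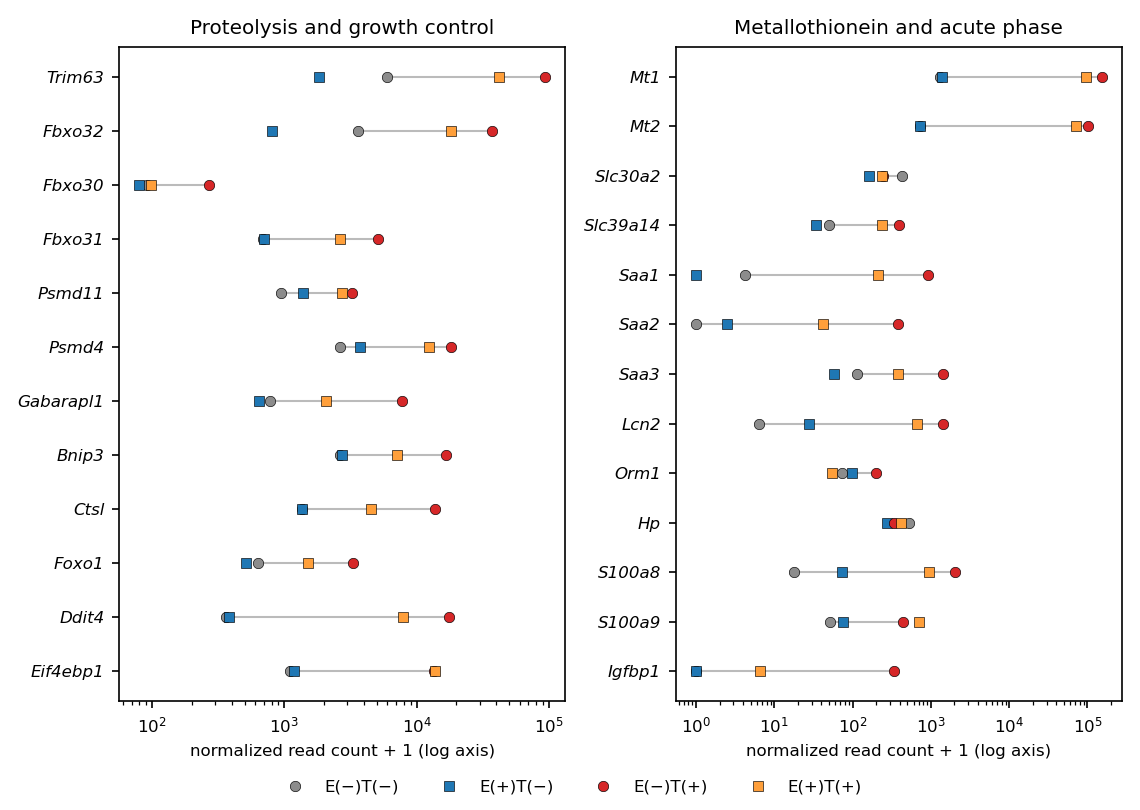
Normalized read count plus 1 (log axis) of 25 genes of proteolysis and growth control (left) and of the metallothionein and acute phase lists (right) in the 4 libraries, 1 point per library, with a gray line between the 2 sedentary libraries. The E(−)T(+) point lies to the right of the E(−)T(−) point for all genes shown other than Slc30a2 and Hp, and for Trim63, Ddit4, Mt1 and Mt2 the E(+)T(+) point lies on the same side.

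The metallothioneins Mt1 and Mt2 were among the 15 largest rises of all genes. Mt1 (chr8:94179082-94180327) had 1216, 1707, 141867 and 87495 reads and was 117-fold higher in E(−)T(+), a log2 difference of 6.88 (interval 6.79 to 6.96). Mt2 (chr8:94172664-94173568), its neighbor on the chromosome, had 683, 902, 95167 and 66308 reads and was 140-fold higher (7.13, interval 7.02 to 7.24). The 2 tumor-free libraries were alike for both genes, and both tumor-bearing libraries were far above them. Mt4, a metallothionein known from stratified epithelium, had 0, 0, 72 and 7 reads and was at least 24.1-fold higher, while Mt3 had 8, 10, 8 and 7 reads and was below the minimum. The whole list of metallothionein, zinc and iron genes did not move as a group. Of its 27 members at the minimum, Mt1, Mt2 and Mt4 among them, 7 rose and 3 fell, with a median of 0.05. Over all genes, 18.7% rose and 21.5% fell. Slc39a14 (Zip14), a zinc importer that inflammation induces and that loads zinc into cachectic muscle, had 46, 41, 367 and 220 reads and rose by 2.98. Slc39a8, a related importer, had 0, 6, 25 and 11 reads. The zinc exporter Slc30a1, a target of the same zinc sensor as Mt1, rose by 1.15 in the sedentary pair, with 231, 485, 509 and 282 reads, and differed by -0.36 in the exercised pair, so that its groups overlapped. Tfrc, the transferrin receptor that brings iron into the cell, went down in both pairs, with 1250, 2155, 118 and 147 reads, and fell by 3.38 in the sedentary one. The iron store Fth1 differed by 0.64 and Ftl1 by 0.38.

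Most acute phase transcripts at the minimum rose. Of 28 at the minimum, 18 rose, beside 18.7% of all genes, and 1 fell. The median log2 difference was 2.73 beside -0.03 for all genes, and the exercised pair gave 0.98. Saa1 and Saa2, the circulating serum amyloid A proteins, had 3, 0, 848 and 191 reads and 0, 2, 355 and 38 reads. Saa2 was at least 119-fold higher in the sedentary pair. Saa1 was 280-fold higher, with a log2 interval of 6.60 to 10.43, since it rested on few reads in the normal control. These are near-identical genes, so reads may have been split between them. Saa3, the form made outside the liver, had 107, 71, 1315 and 347 reads and rose by 3.62. Lcn2 (lipocalin 2), which withholds iron from bacteria and suppresses appetite, had 5, 33, 1339 and 618 reads and was 267-fold higher. Serpina3n, a protease inhibitor typical of wasting muscle, had 153, 122, 3420 and 1897 reads, a rise of 4.48 with 4.37 in the exercised pair. Lrg1 rose by 2.91, from 369 to 2755 reads. For Saa1, Saa3, Lcn2, Serpina3n and Lrg1 both tumor-bearing libraries were above both tumor-free ones. Hamp2, a relative of the iron hormone hepcidin, was different, with 49, 2381, 5011 and 1837 reads. It was high in every library other than the normal control, and the exercised pair differed by only 0.04. The list also held members that did not rise. Hp (haptoglobin) had 498, 337, 318 and 386 reads, C3 differed by -0.65, and Crp fell, with 19, 0, 0 and 0 reads.

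Several acute phase genes are hepatocyte products, and hepatocyte markers were counted beside them. The list summed to 2600, 590, 2820 and 1457 normalized reads, and 13 of its 19 members at the minimum rose while 3 fell. Alb (albumin) had 351, 124, 555 and 71 reads, Apoa1 had 37, 14, 84 and 13, and Ttr had 34, 3, 78 and 36, so that the defining markers were present in every library. Fgb, which encodes a fibrinogen chain, followed the sedentary tumor-bearing library with 28, 9, 896 and 37 reads, as did Mat1a, the hepatic methionine adenosyltransferase, with 0, 3, 236 and 10. Tat, the liver tyrosine aminotransferase, had 49 reads in E(−)T(+) and 0 in every other library. Cyp2e1 went down in the same comparison, with 1414, 83, 390 and 944 reads. Whether RNA of liver cells had a part in the acute phase rise was not tested.

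Genes of cytokine signaling, a list of ligands, receptors, signaling proteins and induced genes, were more often higher than lower. Of 30 at the minimum, 17 rose and 4 fell, with a median log2 difference of 1.44 and 0.28 in the exercised pair. Socs3, the feedback inhibitor of IL-6 signaling, had 151, 202, 802 and 872 reads and rose by 2.41. Stat3 itself rose by 1.87, from 1223 to 4429 reads, and Nfkbia, the inhibitor of NF-κB that NF-κB induces, by 2.11. Junb had 117, 190, 3495 and 629 reads and rose by 4.90. Tnfrsf12a (Fn14), the receptor for TWEAK, which promotes wasting, had 19, 104, 225 and 301 reads. Of the cytokine ligands, Il6 had 3 reads in E(−)T(+) and 0 elsewhere, and Tnf had 3, 5, 0 and 1, so that neither was measurable at this depth. Il1b had 0, 21, 54 and 5 reads and Cxcl5 had 0, 8, 68 and 0, which left both above 0 in the normal exercise library as well. Il15, a cytokine made by muscle, fell by 2.22, from 215 to 45 reads, and Il18 fell by 3.28.

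Transcripts listed as neutrophil markers were higher as a sum in both tumor-bearing libraries than in both tumor-free ones. S100a8 and S100a9, the calprotectin subunits, had 16, 88, 1918 and 885 reads and 47, 93, 415 and 642 reads, rises of 6.83 and 3.12. Retnlg, a neutrophil resistin, had 0, 3, 92 and 175 reads, and the collagenase Mmp8 had 1, 2, 35 and 98. Of 23 matched neutrophil markers, 12 had no reads in the normal control. At the minimum were 11, of which 10 rose, beside 18.7% of all genes. Markers with few reads in the normal control reached the minimum only through a high value in E(−)T(+). This count and the median are therefore descriptions. The list summed to 152, 254, 4407 and 2814 normalized reads. The median of those 11 was 4.19, or 3.37 with the members without reads set to a floor of 3 reads. The granule genes Ngp (0, 0, 9 and 0 reads), Camp (1, 0, 15 and 14) and Ltf (0, 0, 8 and 3) were below the minimum, and Elane had no read in any library. S100a8, S100a9 and Lcn2 held most of the sum of the list in both tumor-bearing libraries. S100a8 and Lcn2 are also made by cells other than neutrophils, and Lcn2 stands in the acute phase list as well. In bulk tissue, more cells of a type and more RNA per cell cannot be told apart, and this holds for every list below.

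Macrophage genes split. Of 27 at the minimum, 13 rose and 3 fell, and the list summed to 8922, 7480, 12250 and 12502 normalized reads. Cd68, a lysosomal protein of phagocytes, rose by 3.45, with 87, 117, 957 and 295 reads, and the complement gene C1qa rose by 1.23. Arg1, an enzyme of alternatively activated macrophages and of liver, had 4, 2, 266 and 34 reads, and Marco, a scavenger receptor, had 2, 10, 137 and 3. The broad markers did not follow, with log2 differences of -0.08 for Adgre1 and -0.69 for Csf1r, the receptor on which macrophages depend. Folr2, a marker of resident macrophages, fell by 1.54, and Ccr2, the receptor of recruited monocytes, fell by 1.90. Lymphocytes were close to the limit of detection. Cd8a had no read in any library, Cd3e had 0, 1, 1 and 0 reads and Cd79a 2, 4, 0 and 0, and 7 of 28 matched lymphocyte and mast cell markers reached the minimum. Among these the mast cell protease Cma1 fell from 257 to 82 reads while Cpa3 differed by -0.15.

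Interferon-inducible and antigen presentation genes went down, opposite to the acute phase. Of 42 at the minimum, 25 fell and 1 rose, with a median log2 difference of -1.20, and the exercised pair gave -0.79. Both tumor-bearing libraries were below both tumor-free libraries for 30 of the 42 (28.7% of all genes). All 4 class II genes measured fell, with H2-Ab1 at 573, 909, 116 and 84 reads, H2-Aa at 1443, 1740, 408 and 367, and the invariant chain Cd74 at 889, 1493, 264 and 272. Guanylate binding proteins and immunity-related GTPases, which interferon-γ induces against intracellular microbes, fell in 8 of 9 cases with a median of -2.11. Iigp1 had 630, 772, 103 and 211 reads and Gbp4 had 177, 292, 22 and 48. Class I did not move with them. H2-D1 had 5389, 7818, 5349 and 4355 reads and B2m differed by -0.15. H2-T23 was the member that rose, from 4 to 33 reads.

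Collagen genes fell. Col1a1 (chr11:94936224-94953042), a chain of the main fibrillar collagen, had 9159, 1352, 116 and 348 reads and was 78.4-fold lower in E(−)T(+) (log2 difference -6.28, interval -6.57 to -6.03). Col3a1 (chr1:45311538-45349706) had 7918, 1603, 198 and 483 reads and was 39.7-fold lower, and Col1a2 fell by 4.52. The normal control library held by far the most collagen, and the normal exercise library lay between it and the tumor-bearing ones. The exercised pair differed by -1.54 for Col1a1 and by -1.31 for Col3a1. Of 27 collagen genes at the minimum, 20 fell and 1 rose, with a median of -2.22, and their summed normalized read count was 42901, 10572, 4609 and 6877. Fibril-forming and fibril-associated chains fell in 11 of 12 cases, with a median of -3.85, and all 4 measured chains of collagen VI, which surrounds the muscle fiber, fell, with a median of -3.80. Basement membrane chains stood apart from them. Col4a1 had 1946, 1528, 1505 and 2046 reads, a difference of -0.36, and Col4a2 differed by -0.07, and 1 of 5 type IV chains fell.

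Among 40 matrix glycoproteins and proteoglycans, 23 fell and 1 rose, with a median of -1.32. Fmod (fibromodulin), which organizes collagen fibrils, had 2204, 1006, 44 and 193 reads and fell by 5.61, and its relative Lum fell by 4.05. Sparc, a collagen chaperone, had 15739, 6430, 4084 and 3455 reads and fell by 1.94. Dcn (decorin), the most abundant proteoglycan of muscle, differed by -0.71, with 54429, 46173, 33022 and 32091 reads, and the laminin Lama2 differed by 0.01. Thbs2 was the member that rose, by 1.14. Genes that process matrix split, with 10 of 35 higher and 8 lower, beside 18.7% and 21.5% of all genes. Timp1, an inhibitor of metalloproteinases that inflammation induces, had 14, 47, 144 and 43 reads and rose by 3.28. Lox, which crosslinks collagen, rose by 1.81, from 353 to 1234 reads, and Mmp14, a membrane collagenase, by 1.14. Serpinh1 (HSP47), the collagen chaperone of the endoplasmic reticulum, fell by 1.99, and the procollagen enhancer Pcolce by 1.40.

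Many markers of the cells that make matrix were lower as well. Of 14 fibroblast markers at the minimum, 8 fell, beside 21.5% of all genes, and none of the 14 rose. The list summed to 49918, 37808, 14864 and 21560 normalized reads. Its highest members, Cygb, Ly6a and Pdgfrb, differed by 0.34, 0.08 and 0.01. Pdgfra, the defining receptor of muscle fibroblasts, differed by -0.69, with 487, 474, 300 and 301 reads. Dpt fell by 3.82 and Clec3b fell by 4.56, from 1614 to 67 reads. Tendon markers fell in 9 of 11 cases and 1 rose, with a median of -4.32, and summed to 12825, 6467, 4622 and 6587. Tnmd (tenomodulin) had 723, 231, 14 and 10 reads, and the tendon transcription factor Scx had 291, 234, 98 and 136. Kera and Chad, a proteoglycan and a collagen-binding protein of tendon and cartilage, had 457, 156, 0 and 7 reads and 321, 249, 0 and 1 reads, at least 151-fold and 106-fold lower. Prg4 (lubricin), which coats joints and tendon sheaths, rose instead, from 944 to 2676 reads. How much of the collagen difference came with the amount of tendon or connective tissue in each sample was not tested.

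**Figure D4:**
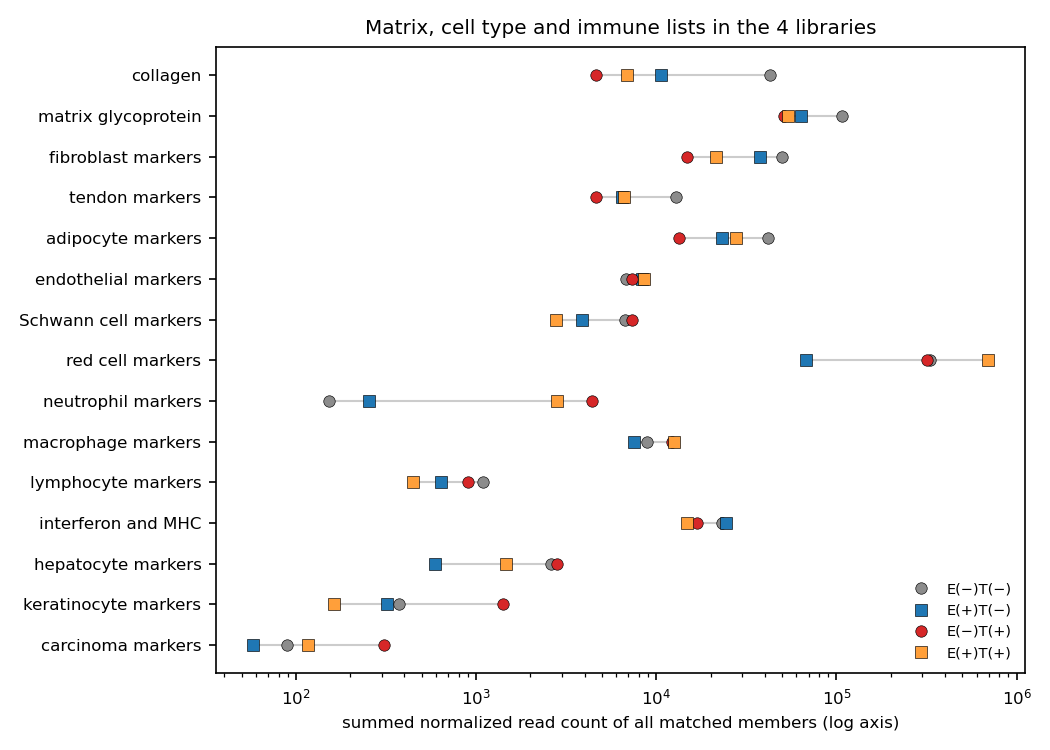
Summed normalized read count (log axis) of all matched members of 15 lists of matrix, cell type and immune genes in each of the 4 libraries, 1 point per library. The sums of collagen and tendon genes are highest in E(−)T(−), neutrophil sums are highest in the 2 tumor-bearing libraries, and keratinocyte and carcinoma marker sums are highest in E(−)T(+).

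The contractile genes of fast fibers did not move as a unit. Of 23 fast fiber genes, 11 fell and 4 rose, with a median log2 difference of -0.90, and their sum fell from 2235910 to 1064750 normalized reads between the sedentary libraries. Pvalb (parvalbumin, chr15:78191114-78206400), the calcium buffer that speeds relaxation, had 231412, 188444, 12643 and 22566 reads and was 18.2-fold lower (log2 difference -4.18, interval -4.21 to -4.16). Casq1, which stores calcium in the sarcoplasmic reticulum, had 15277, 15767, 615 and 2424 reads and was 24.7-fold lower. The light chain gene Myl1 was 9.32-fold lower, with 143640, 106225, 15309 and 34778 reads. Tpm1, the fast α-tropomyosin, fell by 2.64, the light chain Mylpf by 2.02 and the troponin Tnnc2, the most abundant gene of the list, fell by 1.84. For each of these 6 genes, picked among those that fell, both tumor-bearing libraries were below both tumor-free ones. Over the list this held for 11 of 23 genes (28.7% of all genes). For 8 of 23 both tumor-bearing libraries were above instead (27.3% of all genes). The median of the list in the exercised pair was -0.06. Other genes of the same filaments did not reach 2-fold. Myh4 differed by -0.23, Tnni2 by -0.03, with 190324, 272667, 185130 and 195786 reads, Tnnt3 by 0.28 and Tpm2 by -0.06. Atp2a1 (SERCA1), the fast calcium pump, differed by 0.49. Mylk2, the kinase of the fast light chain, rose by 1.88, while Mylk4, a kinase of the same family (chr13:32700834-32783954), had 7347, 10082, 33 and 725 reads and was 221-fold lower.

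Slow fiber genes were higher in the sedentary pair. Of 20 slow fiber and slow-associated genes, 16 rose and 2 fell, with a median of 1.97. Myh7, the slow myosin, had 356, 1069, 1532 and 786 reads and rose by 2.11, Tnni1 rose by 2.50 and Tnnc1 by 2.37. These rises were not seen in the exercised pair, where Myh7 differed by -0.03, Tnni1 by -0.00 and Myl2 by -0.60. Myl2 had 1204, 3895, 4281 and 1920 reads. For Myh7 and Myl2, E(+)T(−) lay above E(−)T(−), and E(+)T(+) lay below E(−)T(+). The normal control library held the lowest level of each of these slow genes. Genes of mechanical stress led the part of the list that rose in both pairs. Ankrd1, a titin-binding repeat protein induced by stretch and denervation, had 96, 435, 4901 and 3627 reads and was 51.4-fold higher (log2 difference 5.67, interval 5.39 to 5.99). Its relative Ankrd2 rose by 4.59, the Z-disc protein Csrp3 by 3.77 and the actin nucleator Lmod2 by 3.58. Mb (myoglobin), the oxygen store of oxidative fibers, went against the list and fell, from 26970 to 6691 reads.

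Among the 4 adult limb myosins, Myh4 took 93.5% of the reads in the normal control (95% Clopper-Pearson interval 93.4 to 93.6) and 84.6% in the cancer control (84.4 to 84.7). The corresponding shares were 92.9% in E(+)T(−) and 82.9% in E(+)T(+). Myh1, the intermediate fast isoform, went from 3.15% to 8.22%, and Myh2, the fast oxidative isoform, from 3.16% to 6.50%. The slow Myh7 made up 0.155% in the normal control and 0.710% in the cancer control. Both tumor-bearing libraries held a lower share of Myh4 and a higher share of Myh1 and Myh2 than both tumor-free libraries, whereas the Myh7 share of E(+)T(−), 0.586%, lay above that of E(+)T(+), 0.497%.

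**Figure D5:**
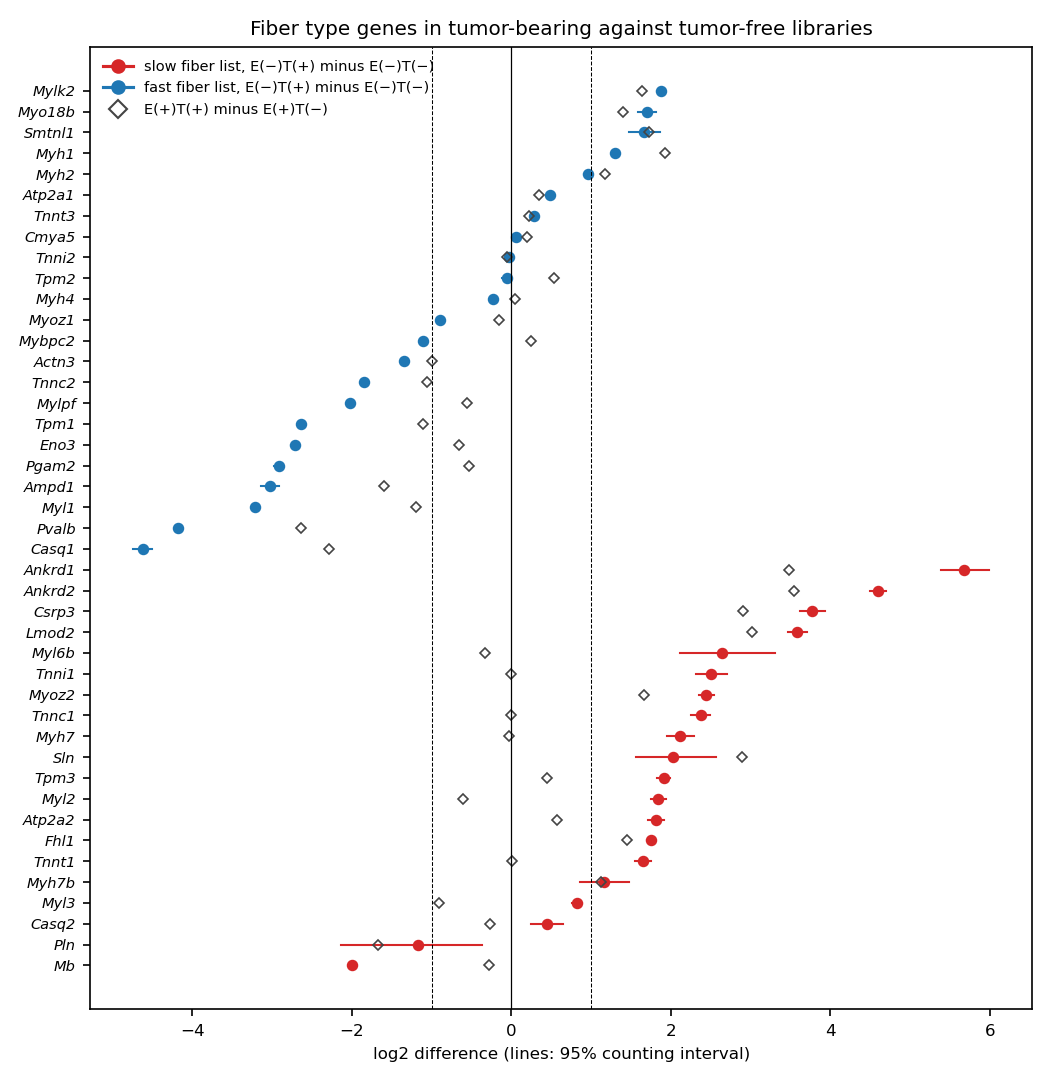
Log2 difference between E(−)T(+) and E(−)T(−) for slow fiber genes (red) and fast fiber genes (blue) at the minimum, with 95% counting intervals as lines, and between E(+)T(+) and E(+)T(−) as open diamonds. Dashed lines mark 2-fold. Pvalb, Casq1 and Myl1 lie to the left in both pairs and Ankrd1, Ankrd2, Csrp3 and Lmod2 to the right, while Myh7, Tnni1, Tnnc1 and Tnnt1 lie to the right in the sedentary pair and near 0 in the exercised pair.

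Other sarcomere genes split, with 9 of 36 higher and 7 lower, beside 18.7% and 21.5% of all genes, and a median of 0.08. The giant proteins did not reach 2-fold, Ttn with a difference of -0.36 and Neb with -0.17. Flnc, a filamin that repairs strained sarcomeres, had 571, 1033, 9008 and 6557 reads and rose by 3.99, and Xirp1, which gathers at damaged sites, rose by 3.63. Acta1 fell by 1.36. The water channel Aqp4, placed in this list for its tie to the dystrophin complex of fast fibers, had 298, 237, 0 and 21 reads and was at least 98.6-fold lower. Excitation-contraction coupling was lower in 8 of 20 genes and higher in 2. Clcn1, the chloride channel that stabilizes the resting membrane, fell by 4.32, from 280 to 13 reads. Jph2, which holds the membranes of the triad together, fell by 2.96 and the calcium channel Cacna1s by 1.47, while the release channel Ryr1 differed by -0.55. Cacng1, the γ subunit of the same channel, rose by 1.88.

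Genes known to respond to denervation did not follow a single pattern, with 6 of 18 higher and 3 lower, beside 18.7% and 21.5% of all genes. Chrna1, the acetylcholine receptor subunit that spreads over denervated fibers, differed by 0.89, with 98, 205, 181 and 323 reads, and Myog rose by 1.41, from 72 to 192. Musk rose from 10 to 74 reads, but had 80 in normal exercise. Chrne, the subunit of the mature synapse, fell by 2.31, and Ache, the esterase, had 39, 50, 0 and 10 reads. Among myogenic regulators, 7 of 16 fell and 3 rose, beside 21.5% and 18.7% of all genes. Myod1 had 288, 356, 20 and 197 reads and fell by 3.77, and Mef2c, which maintains sarcomere genes, fell by 2.94, from 15192 to 1962. Pax7, the mark of satellite cells, had 23, 27, 2 and 0 reads, a ratio with a log2 interval of -6.64 to -1.50. The cardiac actin Actc1, which regenerating fibers express, fell by 4.46, with 953, 152, 42 and 73 reads, a pattern in which the normal control alone was high.

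Transcripts of carbohydrate metabolism were more often lower than higher in the sedentary tumor-bearing library. Of 39 genes of glucose and glycogen use, 19 fell and 5 rose, with a median log2 difference of -0.96. Among the 15 glycolytic enzymes, 6 fell and 1 rose. Eno3, the muscle enolase, had 37904, 34224, 5721 and 16190 reads and fell by 2.72, Pgam2 fell by 2.92 and Tpi1 fell by 2.51. Aldoa, the most abundant glycolytic transcript, differed by 0.02, with 111764, 189755, 112547 and 191093 reads, and Gapdh by -0.02. Gpi1 rose by 1.63. Of 13 glycogen genes, 8 fell and 2 rose, with a median of -1.76. The phosphorylase kinase subunits Phka1 fell by 2.90 and Phkg1 fell by 2.92, and Pgm2, listed for the interconversion of glucose phosphates, fell by 3.85. Ppp1r3c, which targets a phosphatase to glycogen, had 11561, 26208, 3191 and 24540 reads, low in E(−)T(+) alone. The exercised pair gave a median of 0.32 for the glycogen genes and of -0.02 for the whole list. Gpd1, which links glycolysis to glycerolipids, fell by 4.34 in the sedentary pair and fell by 2.15 in the exercised pair.

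Of 79 respiratory chain subunits, 22 fell, beside 21.5% of all genes, and none of the 79 rose, with a median of -0.65, and their sum was 745543, 607315, 523842 and 683316 normalized reads. In complex I, 13 of 37 subunits fell, and in complex V 3 of 15, the latter near the share of all genes. Cox7a1, the muscle isoform of a complex IV subunit, had the largest difference and fell by 2.10, with 9052, 7505, 2103 and 3997 reads, while Cox6a2, another muscle isoform, differed by 0.81 and Cox4i1 by 0.02. The 4 subunits of complex II lay between -0.95 and -0.31. The median in the exercised pair was 0.15. Among regulators, Ppargc1a (PGC-1α), the main coactivator of mitochondrial biogenesis, differed by -0.68, its relative Ppargc1b fell by 1.81, and their muscle target Perm1 fell by 2.92, with 1944, 1612, 255 and 1277 reads. Ckmt2, the mitochondrial creatine kinase, fell by 2.27.

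Fat metabolism genes moved in both directions. Over the list of 45 genes, 9 rose and 9 fell, shares near the 18.7% and 21.5% of all genes, with a median of -0.07. Pnpla2 (ATGL), the first lipase of stored fat, had 2838, 4123, 12838 and 9481 reads and rose by 2.19. Lipe (hormone-sensitive lipase), which acts after it, had 737, 647, 104 and 366 reads and fell by 2.80. Pdk4, which blocks entry of pyruvate into the TCA cycle, had 401, 27, 990 and 895 reads, so that its rise was 1.31 in the sedentary pair and 5.42 in the exercised pair, where the tumor-free level was low. Acot1, an acyl-CoA thioesterase, rose by 4.28, and Mlycd, which lowers malonyl-CoA, by 1.62. Cpt1b, the mitochondrial fatty acid gate, differed by 0.16 and Cd36 by -0.07. Scd1, a fatty acid desaturase, was 24.2-fold lower, with 8364, 4866, 343 and 550 reads. Fasn, the fatty acid synthase, was 21.6-fold lower, with 2724, 7248, 125 and 1033. Srebf1, their transcription factor, fell by 1.77. Adipocyte markers were lower in the same library. Of 11 at the minimum, 10 fell and 1 rose, and the list summed to 41860, 23040, 13351 and 27853 normalized reads. Adipoq had 1823, 929, 564 and 1036 reads, Plin1 had 138, 108, 7 and 47, and Lep, the hormone leptin, had 67, 12, 0 and 0. The part of fat cells in the fall of Scd1 and Fasn was not tested.

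The largest falls of the amino acid and polyamine list were those of Amd1, Amd2 and Smox, all polyamine genes. Amd1 and Amd2, near-identical genes for S-adenosylmethionine decarboxylase, had 11481, 6731, 452 and 543 reads and 14828, 8414, 570 and 681 reads. Amd1 fell by 4.65 and Amd2 fell by 4.69. Reads of these copies cannot be told apart with certainty, so they are best read as 1 observation, though the counts of the list hold both. Smox, the spermine oxidase whose loss accompanies atrophy, had 2443, 3529, 247 and 339 reads and fell by 3.29. Both tumor-bearing libraries were below both tumor-free libraries for Amd1, Amd2 and Smox. Sat1, which acetylates polyamines for export, rose by 1.85, and Srm, the spermidine synthase, by 2.69, while Odc1, the first enzyme, differed by 0.25. The amino acid carriers Slc7a5 (14 to 71 reads) and Slc7a8 (75 to 621) and their heavy chain Slc3a2 (1.72 on the log2 scale) were higher in the sedentary pair, and were picked after their values were seen. Of 33 genes of the amino acid and polyamine list 11 rose and 6 fell, beside 18.7% and 21.5% of all genes, with a median of 0.29.

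Ribosomal protein transcripts shifted upward nearly as a block. Of 81, 27 rose and 1 fell, the median log2 difference was 0.84, and both tumor-bearing libraries lay above both tumor-free libraries for 77 of the 81, beside 27.3% of all genes. Large and small subunit genes gave medians of 0.82 and 0.84. Rps20 had 12220, 20980, 33576 and 27821 reads and rose by 1.47. Rpl3l, the muscle form that replaces Rpl3, was the member that fell, by 1.14, with 4777, 5601, 2155 and 3698 reads, and Rpl3 itself rose by 1.35, from 287 to 727 reads. The 2 paralogs thus moved in opposite directions. Many processed pseudogenes share ribosomal sequences, and how such reads were counted is not given in the sources used here. Of 37 translation factors, 12 rose and 2 fell, with Eif4a1 higher by 2.02 and the cap-binding Eif4e lower by 1.40.

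Of 35 stress genes 12 rose and 3 fell, beside 18.7% of all genes higher. Ppp1r15a (GADD34), which restores translation after stress, had 121, 146, 2049 and 494 reads and rose by 4.08, and Hmox1, the heme oxygenase, rose by 3.29, from 22 to 223 reads. Atf4 rose by 1.19, while Nqo1, a target of the antioxidant factor NRF2, differed by 0.00 and Txnrd1, another, by 0.04. Gdf15, a hormone of sickness and weight loss, was below the minimum, with 5, 18, 4 and 8 reads, and Fgf21 had no read in any library. Of 25 heat shock genes 6 rose and 1 fell, with a median of 0.08, a share of rises near that of all genes. The largest differences were those of small heat shock proteins, Hspb7 with 231, 933, 4006 and 3977 reads and Hspb1 with 4659, 5900, 28156 and 20380, rises of 4.12 and 2.60. The general chaperones Hspa8 and Hsp90aa1 did not reach 2-fold, with 2448 and 2070 reads in the normal control.

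Markers of further cell types were measured in each library. Keratinocyte genes were seen in E(−)T(+) above the other libraries. Flg2 had 148 reads there and 0 in every other library, Lor had 4, 0, 199 and 4 reads, Dsp had 3, 1, 133 and 0, and Krt5 had 20 reads and 0 elsewhere. The list summed to 373, 319, 1418 and 163 normalized reads. Of 19 matched members, 11 had no reads in the normal control, and such members reached the minimum only through E(−)T(+). At the minimum 9 of 12 rose, beside 18.7% of all genes, a count that is therefore a description. The defining marker Krt10 had 181, 236, 204 and 76 reads, so that it did not follow. Mt4 and Krt20 rose in the same library. Red cell genes had sums of 331124, 67647, 316429 and 697018, lowest in the normal exercise library, and Hba-a1 had 153950, 45317, 140399 and 280166 reads. Endothelial markers summed to 6787, 8280, 7360 and 8504 and Schwann cell markers to 6728, 3870, 7336 and 2765. Carcinoma markers were scarce. Epcam had 0, 1, 0 and 0 reads, Krt8 5, 0, 12 and 0, and Krt20, an epithelial keratin of the intestine, 0, 0, 177 and 52. The part of these cells in the differences above was not tested.

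The 15 largest rises and falls by size held genes of few reads in one library. Beside the genes already given, the rises included Aldh8a1 (0, 8, 163 and 4 reads), Clec4d (0, 17, 162 and 94) and Chil3, a chitinase-like protein of macrophages (0, 10, 125 and 61). Clec4d and Chil3 were above both tumor-free libraries in both tumor-bearing ones, whereas Aldh8a1 was high in E(−)T(+) alone. The falls were led by Ces1d, a carboxylesterase of fat and liver, which had 553, 87, 0 and 80 reads and was at least 183-fold lower. In the exercised pair Ces1d differed by 0.30, so that the normal control and the cancer control stood apart at opposite ends. Lrrc38, a potassium channel subunit, had 474, 675, 0 and 21 reads and was at least 157-fold lower, and Mettl21e, a methyltransferase of muscle, had 524, 45, 1 and 15. Cited4 (240, 298, 0 and 12 reads), Pnck (229, 145, 0 and 24), Pnpla3 (199, 136, 0 and 34), Kcng4 (191, 203, 0 and 7), Stxbp4 (183, 239, 0 and 51), Comp (175, 66, 0 and 11), Pmp2 (171, 61, 0 and 18) and Itgb6 (169, 177, 0 and 2) were all at 0 in E(−)T(+). For each of these 8 genes E(+)T(+) was also below both tumor-free libraries.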

How the data were processed

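Polyadenylated RNA of gastrocnemius muscle was measured by 3′ mRNA sequencing (QuantSeq), 1 library per group, with groups taken from the sample titles. According to the methods, the authors used Bowtie2 for alignment and bedtools for counts per gene, and applied quantile normalization in R. The submitters' processing notes name the mm10 build (GRCm38). Annotation, strand handling and treatment of multiply matching reads are not given in the sources used here, so overlapping genes and near-identical copies are uncertain. The authors' deposited values are on a log2 scale, taken after adding 1 to each normalized read count, a step that shrinks differences of low genes. Gene coordinates are from GENCODE vM21 (GRCm38) and promoters from RefSeq (GRCm38.p6). Fbxo32 had no promoter entry.

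Whole reads were rebuilt from the steps of the low values, by inverting a negative binomial quantile adjustment with 1 factor per library and 1 dispersion (0.339). All 23282 rows were matched within 0.0006 on the log2 scale in all 4 libraries. Only 1 count was possible for 93.8% to 95.5% of a library's values, and counts of abundant genes are approximate. Reads were used for totals, intervals and zeros, and the 3-read floor was 2.27e-05% to 2.82e-05% of a library. No molecular identifiers are described, and PCR copies are therefore not separated by these intervals and floors, which cover counting error. The rebuilding and the calls were tested on simulated reads.

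The difference between E(−)T(+) and E(−)T(−) was called at 2-fold among genes that reached 16 in either library. A gene without reads in one library is given as a lower bound against 3 reads. Gene lists (45 lists, 1292 symbols, of which 10 had no row) and the genes at the minimum were chosen with earlier results of these data known, and the parts of lists were chosen after values were seen. Genes named were core members of lists, the 3 largest differences in each direction per list and the 15 largest in each direction overall. Outside this rule, Cry2, Elane, H2-Ab1, Igf1r, Igfbp3, Iigp1, Insr, Irs1, Junb, Lmod2, Mlycd, Pcolce, Ppp1r3c, Psma7, Psmb10, Slc39a8, Slc3a2, Slc7a5, Slc7a8, Srebf1, Srm, Tpi1, Tpm1 and Tpm2 were named after their values were seen. The comparison of both tumor-bearing with both tumor-free libraries was added after the data were seen. Other thresholds, minima, pseudocounts and scalings were tried. Python 3.11.15, numpy 2.4.6, scipy 1.17.1, pandas 2.3.3 and matplotlib 3.10.9 were used.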

Additional observations from a re-analysis of the deposited data

Results flagged for a closer look

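Altogether 5 genes were at least 2-fold lower with the tumor in the sedentary pair and at least 2-fold higher with it in the exercised pair, among core genes and the 15 largest differences in each direction that reached 64 normalized reads in each pair. Each pair is 1 library a side, and the difference between the pairs was not tested. The log2 differences were -1.02 and 2.17 for Angptl4, -1.69 and 1.16 for Cfd, -1.84 and 3.91 for Cyp2e1, -1.01 and 1.13 for Mstn, and -1.24 and 1.95 for Ucp3, sedentary pair first. Reads in E(−)T(−), E(+)T(−), E(−)T(+) and E(+)T(+) were 158, 29, 77 and 100 for Angptl4 and 11363, 4493, 3492 and 7506 for Cfd (adipsin). They were 1414, 83, 390 and 944 for Cyp2e1, 395, 220, 194 and 361 for Mstn and 557, 179, 234 and 519 for Ucp3. In all 5 genes the normal control held the most reads. No group had enough libraries for a search for outlying samples.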

How the results depend on the processing

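The counts of 2382 higher, 2744 lower and 5126 called genes stayed within 1.5 times under a pseudocount of 8 or one below 1, a minimum of 64, centering on the median, scaling to total reads and scaling to total reads without the 20 most abundant genes. A fold of at least 4 gave 841 higher, 1099 lower and 1940 in all. A fold of at least 1.5 gave 3722 higher and 7777 in all. A minimum of 16 in both libraries gave 1826 lower and, without a minimum, 4135 genes were lower. Scaling without the 20 most abundant genes moved all differences by -0.12 and the higher share of the calls from 46.5% to 40.3%, while total reads moved them by 0.07. Of 367 named genes called, 357 kept their call with a pseudocount of 8, 366 after centering and 362 under total reads, and no called gene changed sign. Values near 0 did. The median of the calpain and caspase list went from 0.07 to -0.18 with members at 64, that of the fat list crossed 0 under total reads, and Rps27l (-0.05), Tnni2, Gapdh, Cd36, Hsp90aa1 and H2-D1, all under 2-fold, changed sign under total reads. The 17 list medians of at least 1 in size stayed so under a pseudocount of 8, centering and total reads, and 16 did with a minimum of 64 for members, but their sizes moved by up to 1.88 with a pseudocount of 8 and 2.39 with members at 64. With a pseudocount of 8 the tendon median was -2.44, the neutrophil median 2.39 and the acute phase median 1.86. No paired analysis was possible because each group has 1 library, and for the same reason no library could be left out. Low counts limit genes with few reads, whose ratios are bounds, and the spread between mice is unknown.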

Other observations

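Cell cycle genes were higher in the sedentary tumor-bearing library. Of 27 at the minimum, 16 rose and 2 fell, with a median log2 difference of 1.26 and of 0.41 in the exercised pair. Counts were low. Top2a, the topoisomerase of dividing cells, had 19, 16, 96 and 16 reads in E(−)T(−), E(+)T(−), E(−)T(+) and E(+)T(+), Mki67 had 11, 1, 57 and 3, and Birc5 (survivin) had 14, 2, 123 and 38. Both tumor-bearing libraries were above both tumor-free libraries for 9 of the 27 genes, a share near the 27.3% of all genes. The cyclin Ccnd2 went against the list, with 614, 453, 88 and 183 reads. Which cells carried these transcripts was not tested.

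Of 19 circadian clock genes, 8 rose and 2 fell, with a median of 0.74. Per1, which glucocorticoids also induce, had 39, 56, 606 and 264 reads and rose by 3.93. Ciart had 0, 24, 159 and 54 reads, Nr1d1 (REV-ERBα) had 140, 569, 1239 and 464, and Cry2 had 137, 258, 1628 and 391. Dbp, an output gene of the clock, fell by 1.09, with 343, 479, 160 and 105 reads. The core factors Clock and Arntl (BMAL1) differed by -0.15 and 0.38. The hour at which each mouse was sampled is not given in the sources used here, so time of day and tumor cannot be told apart for these genes.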
